A study of Mus musculus with 19 samples.

Results

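5-Hydroxymethylcytosine (5hmC) was examined at 7 loci of mesenchymal transcription factor genes, Snai1, Snai2, Zeb1, Zeb2, Twist1, Prrx1 and Runx1, in mouse cells on the way from fibroblast to induced pluripotent stem cell. Each locus was a fixed interval of the mm9 genome, and its members were all deposited 5hmC peaks that overlapped it. The intervals were chr2:167355000-167380000 (Snai1), chr16:14695000-14720000 (Snai2), chr2:44830000-45000000 (Zeb2), chr12:34625000-34665000 (Twist1), chr1:165165000-165255000 (Prrx1) and chr16:92590000-92835000 (Runx1), and that of Zeb1 is given with its values. Together they spanned 795 kb and held 1345 of the 1601520 peaks in 18 lists. By locus the number of peaks was 614 at Runx1, 385 at Zeb2, 108 at Prrx1, 93 at Snai1, 88 at Zeb1, 52 at Twist1 and 5 at Snai2. No mm9 gene annotation was used, so a locus is the interval named for its gene, and whether a peak lies in a promoter, exon or intron was not analysed here.

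The study mapped 5hmC by chemical labelling and capture in pre-iPSCs, which are incompletely reprogrammed cells derived from mouse embryonic fibroblasts (MEF). WT pre-iPSCs had 3 libraries (A, B and C) at each of day 0, day 2 and day 10 (D0, D2, D10), and KO pre-iPSCs had 2 (KO1 and KO2) at each day. The pluripotent reference was the V6.5 line of mouse embryonic stem cells (mESC), sampled at 0, 12 and 72 hours without replicates. All of these libraries carry the treatment AA+2i, that is ascorbic acid, a cofactor of the TET enzymes, at 50 µg/mL with the GSK3 inhibitor CHIR-99021 and the MEK inhibitor PD-0325901, D0 and 0 hours included. The labels name neither the gene removed in KO nor the strain of the pre-iPSCs, and the 2 KO lines differ in their deposited run names (CrisprKO_All for KO1, CKO-H for KO2). The word All, whose meaning is not given, also stands in the run names of WT B. Peak lists hold no expression values, so the labelled cell types were not checked against marker genes.

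5hmC is made from 5-methylcytosine by TET enzymes and is found mostly over enhancers and the bodies of active or newly opened genes, where it can be a step towards unmethylated DNA. Among regulators of the mesenchymal state, the zinc-finger proteins Snai1, Snai2, Zeb1 and Zeb2 bind E-boxes and repress epithelial genes such as E-cadherin, the helix-loop-helix protein Twist1 acts with them in the epithelial-to-mesenchymal transition, the homeobox protein Prrx1 marks limb and other mesenchyme, and Runx1, a runt-domain protein of blood stem cells, is also expressed in fibroblasts. Reprogramming of fibroblasts involves the reverse change, a mesenchymal-to-epithelial transition, in which this programme is shut down.

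Promoter sequences of 4 of these genes are shown because their loci are those whose 5hmC peak coverage was lower at D10 than at D0 in WT cells. Each is the 250 bases before the annotated gene start, from RefSeq on GRCm38.p6, 5′ to 3′ on the gene's strand, with CG dinucleotides, the substrate of DNA methylation, in capitals. These positions are on another build than the peaks and cannot be set against them. The Snai1 promoter (chr2:167537945-167538194, plus strand) has 27 CG, a number that 8.56% of the 32851 promoters of the table reach. The Twist1 promoter (chr12:33957421-33957670, plus strand) has 18, which 21.7% reach. The 5′-most Zeb2 promoter (chr2:45117443-45117692, minus strand) has 9, which 40.3% reach, and the Prrx1 promoter (chr1:163313651-163313900, minus strand) has 4, which 62.2% reach. The median promoter has 6, so CG-rich and CG-poor promoters both occur among the 4. The E-box CACCTG, searched on both strands, occurs once (1 match) in the Snai1 sequence and in none of the other 3, and 17.2% of promoters of this length hold it.
Snai1: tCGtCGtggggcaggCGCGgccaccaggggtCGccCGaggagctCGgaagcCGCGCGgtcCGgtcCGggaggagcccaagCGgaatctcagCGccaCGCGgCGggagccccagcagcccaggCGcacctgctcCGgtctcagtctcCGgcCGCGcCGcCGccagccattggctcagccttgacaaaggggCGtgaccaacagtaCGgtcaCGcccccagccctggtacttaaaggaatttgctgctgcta
Twist1: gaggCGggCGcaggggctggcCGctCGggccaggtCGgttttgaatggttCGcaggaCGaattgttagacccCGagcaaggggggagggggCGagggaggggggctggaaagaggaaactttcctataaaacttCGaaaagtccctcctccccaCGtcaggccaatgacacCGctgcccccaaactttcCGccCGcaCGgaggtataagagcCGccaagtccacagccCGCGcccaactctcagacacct
Zeb2: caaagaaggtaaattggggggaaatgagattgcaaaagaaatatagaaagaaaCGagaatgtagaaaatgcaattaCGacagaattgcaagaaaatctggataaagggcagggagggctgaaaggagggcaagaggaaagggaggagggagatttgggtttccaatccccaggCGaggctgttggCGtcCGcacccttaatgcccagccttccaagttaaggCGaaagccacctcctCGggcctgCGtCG
Prrx1: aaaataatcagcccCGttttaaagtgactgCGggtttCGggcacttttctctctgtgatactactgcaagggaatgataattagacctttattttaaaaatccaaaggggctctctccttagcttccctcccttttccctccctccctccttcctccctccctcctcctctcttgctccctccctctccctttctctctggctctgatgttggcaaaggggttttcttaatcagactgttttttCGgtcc

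The pre-iPSC lists held 55134 to 161004 peaks and the mESC lists 24130 to 33576, and WT C had the shortest WT list on each day. To put lists of unequal length on 1 footing, the 55130 strongest peaks of each pre-iPSC list by the authors' -log10 p were kept, and the measure was the number of bases (bp) of a locus under those peaks, called covered bp. The weakest peak kept had a -log10 p between 4.03 (WT D10 C) and 13.6 (WT D2 A). Relative to the whole genome, peak coverage of the loci per length spanned a wide range. Over all deposited peaks, Snai1 in WT at D0 was covered 7.29 to 8.23 times as densely as the genome, Runx1 3.19 to 5.71 times, Zeb2 2.34 to 3.22 times, Prrx1 2.06 to 2.81 times, Twist1 1.44 to 3.62 times and Zeb1 0.334 to 1.09 times, and Snai2 not at all. Within each WT D0 library the loci followed this order, except that Twist1 lay above Prrx1 in WT A (3.62 against 2.81) and above Zeb2 there (3.22). Across libraries, the ranges of Runx1, Zeb2, Prrx1 and Twist1 overlapped one another, except that Runx1 lay above Prrx1 throughout.

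Across the WT days, 5hmC coverage fell at Snai1, Zeb2, Prrx1 and Twist1 by D10 and passed the test at neither Zeb1 nor Runx1. In WT D10 against D0, 4 of the 6 loci that could be tested were lower, where 21.8% of all intervals tested were lower. Each locus was tested beside 100 kb tiles of the genome on log2(covered bp per 100 kb + 500) with limma and Benjamini-Hochberg adjustment at 0.05, a scale that understates changes of sparsely covered loci. Of D10 against D2, 3 of 6 were lower (Snai1, Zeb2 and Prrx1; 11.2% of all intervals), and of D2 against D0, only Twist1 among the 6 was lower (13.9%). Snai2 had no bp under the strongest peaks and entered no test. In cultures of mixed cells, fewer cells that carry 5hmC at a site and less 5hmC per cell cannot be told apart.

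**Figure D1:**
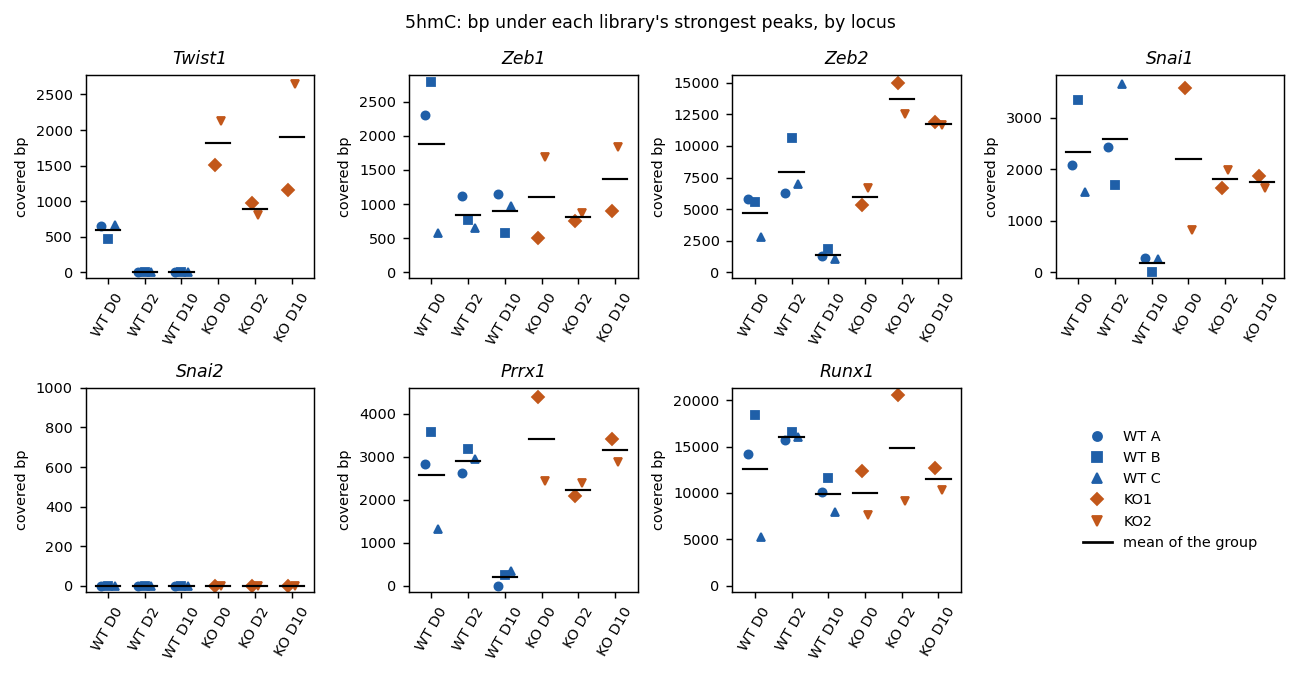
Covered bp under the 55130 strongest peaks (y axis, linear, a scale per locus) in each of the 15 pre-iPSC libraries, by group (x axis), with the mean of each group as a bar; marker shapes give the replicate or line. At Snai1, Zeb2 and Prrx1 the 3 WT D10 libraries lie below all other pre-iPSC libraries, and at Twist1 the WT D2 and D10 libraries are at 0, while KO D10 libraries lie in the range of the earlier days or above it. Covered bp do not show whether the same sites are covered.

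Snai1, the founding member of the Snail repressors, had 2091, 3341 and 1566 covered bp in the WT D0 libraries A, B and C. It had 2427, 1695 and 3654 bp at D2, and 283, 0 and 254 bp at D10. All 3 D10 libraries lay below all 6 earlier ones, whose D0 and D2 ranges overlapped. The fitted change of D10 against D2 was -2.94 (SE 0.44, limma adjusted p 0.000328), and that of D2 against D0 was -0.00 (SE 0.44, adjusted p 1). An exact permutation F test over the 3 days gave p = 0.0357, where the smallest p this design allows is 0.00357. Over the whole lists there were 8, 8 and 4 peaks at D0, then 10, 16 and 10, and 3, 0 and 1 in the D10 lists. D10 was thus the lowest here too. Peak number, unlike covered bp, was higher at D2 than at D0, but the D2 lists were longer for each letter. Density relative to the genome was 6.54, 11.4 and 11 at D2 against 8.23, 8.05 and 7.29 at D0 in whole lists.

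A pair of merged peak regions near the middle of the Snai1 interval recurred in most libraries. The first, chr2:167363829-167365943 (2115 bp), had a peak in all 6 WT libraries of the earlier days, in 1 of 3 at D10 and in all 6 KO libraries. The second, chr2:167366809-167367938 (1130 bp), had the same counts. The strongest Snai1 peak of the WT D2 A list was in the first region, with the authors' 13.5-fold enrichment and -log10 p of 49.7. The strongest Snai1 peak of the WT D10 A list lay elsewhere in the interval, with 4.5-fold enrichment and a -log10 p of 9.73. Both figures come from the authors' peak caller and rank a peak only within its list.

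Snai2, or Slug, the second Snail repressor and a gene of neural crest and fibroblasts, was nearly without 5hmC peaks. Its 5 peaks over all lists fell on 1 site, chr16:14706840-14707219 (380 bp). All 3 WT D2 libraries had a peak there, of 231, 370 and 274 bp, and no WT library had one at D0 or D10. KO1 had a peak at the site at D2 and at D10, of 326 and 451 bp, and KO2 and the mESC libraries had none. The peaks were weak, with authors' folds of 3.93 to 4.9 and -log10 p of 6.6 to 10.8, and none was among the strongest of its library.

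Zeb2, the zinc-finger homeobox repressor also known as Sip1, had 5784, 5583 and 2787 covered bp in WT D0 A, B and C. It had 6278, 10596 and 6996 bp at D2, and 1337, 1842 and 1048 bp at D10. The D2 libraries lay above the D0 libraries, and the D10 libraries lay below all others. After scaling, the ranges of D0 and D2 overlapped, and the D2 against D0 change of 0.54 (SE 0.27) did not pass the test (limma adjusted p 0.166). The fall from D2 to D10 was -1.58 (SE 0.27, limma adjusted p 0.000779) and that from D0 to D10 was -1.03 (SE 0.27, adjusted p 0.00748). The exact permutation F test over days gave p = 0.00714. In whole lists, peak number was 16, 23 and 9 at D0, then 39, 36 and 27, and 7, 9 and 4 in the D10 lists. The D2 lists were also longer than the D0 lists for each letter. Relative to the genome, density in whole lists was 3.38, 4.29 and 3.86 at D2 against 3.22, 3 and 2.34 at D0.

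Zeb1, on chr18:5580000-5780000, encodes the sister repressor of Zeb2 and is a widely used marker of the mesenchymal state, and in WT at D0 it was the sparsest locus apart from Snai2. It had 2303, 2781 and 574 covered bp at D0, 1116, 772 and 649 bp at D2, and 1149, 578 and 970 bp at D10 in WT A, B and C. WT D0 C lay at the level of the later days, and the 3 days overlapped. No change passed limma's test: D2 against D0 was -0.60 (SE 0.33, adjusted p 0.227) and D10 against D2 was 0.30 (SE 0.33, adjusted p 0.567). The exact permutation F test over days gave p = 0.225.

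A single Zeb1 site, 99.4 kb from the start of the interval (5679129 to 5679576 on its chromosome, 448 bp), recurred almost throughout. It had a peak in 3 of 3 WT libraries at D0, 3 of 3 at D2 and 2 of 3 at D10, in all 6 KO libraries and in mESC at 72 hours. In at least 1 library of each WT day and each KO day it held the strongest Zeb1 peak of that list, with authors' folds of 6.37 to 11.2. A different site 193.8 kb from the start (964 bp) had a peak in all 3 WT D10 libraries and in no other pre-iPSC library, and in mESC at 12 and 72 hours.

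Twist1, the helix-loop-helix factor of mesoderm and neural crest, had 657, 467 and 664 covered bp in WT D0 libraries A, B and C but 0 bp in each of the 6 WT libraries of D2 and D10. The fitted D2 against D0 change was -2.02 (SE 0.29, limma adjusted p 0.000823), and D10 against D0 was also -2.02 (adjusted p 0.000197). The exact permutation F test over days gave p = 0.0357. The fall by D2 rests on the ranking. Over whole lists WT D2 had 1318, 1270 and 526 bp against 2013, 1249 and 664 bp at D0, with a change of -0.26 (limma adjusted p 0.727; the alternatives tried gave 0.000765 to 0.727). In WT D2 A, whose list was the longest, the strongest Twist1 peak had a -log10 p of 12.7, below the 13.6 needed to be kept. At D10 no WT list held a Twist1 peak at any strength, and the weakest peaks kept there had a -log10 p of only 4.03 to 8.4.

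Prrx1, a homeobox activator of limb and craniofacial mesenchyme, had 2824, 3577 and 1316 covered bp in WT D0 libraries A, B and C. At D2 the values were 2616, 3180 and 2951 bp. At D10 it had 0, 259 and 350 bp. The D0 and D2 ranges overlapped and the D10 libraries lay below both. The D10 against D2 change was -2.15 (SE 0.33, limma adjusted p 0.000378), D10 against D0 was -2.05 (SE 0.33, adjusted p 0.000372), and D2 against D0 was 0.11 (SE 0.33, adjusted p 0.925). The exact permutation F test over days gave p = 0.0321.

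The Prrx1 sites shared by most libraries lay in 1 cluster. The region chr1:165237673-165239469 (1797 bp) had a peak in all 9 WT libraries, all 6 KO libraries and mESC at 0 hours. Within it lay the strongest Prrx1 peak of the WT D0 A list (-log10 p 83.7, with 19-fold enrichment by the authors). At D10 each WT library had 1 Prrx1 peak, all in this region, with 4.1- to 4.51-fold enrichment. The neighbour chr1:165241475-165242579 (1105 bp) had a peak in all 3 WT libraries at D0 and D2 and in none at D10. Further on, chr1:165244473-165245640 (1168 bp), had a peak in 1 WT library at D0, 3 at D2 and none at D10. Both of the last named had a peak in both KO libraries at D2 and at D10.

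Runx1 had the most peaks of the 7 loci, and its total passed the test in no contrast of WT days. In WT A, B and C it had 14200, 18348 and 5215 covered bp at D0. It had 15653, 16582 and 16002 bp at D2, and 10125, 11591 and 7924 bp at D10. The D10 libraries lay below the D2 libraries in covered bp, and WT D0 C was the lowest of the 9. Scaled to the libraries' totals, the changes were -0.18 (SE 0.25, limma adjusted p 0.664) for D10 against D2 and 0.16 (SE 0.25, adjusted p 0.625) for D10 against D0. Without WT D0 C the last of these was -0.18 (adjusted p 0.311, in a range of 0.273 to 0.846 over the alternatives). The exact permutation F test over days gave p = 0.639. Relative to the genome the density in whole lists was 5.61, 5.28 and 4.85 at D10, against 5.71, 5.6 and 3.19 at D0, and was the highest of the 7 loci at D10.

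Beneath the Runx1 total, single sites were gained and lost between D0 and D10, as they were over the whole genome. Among its 90 merged WT regions, 8 were gained from D0 to D10 (a peak in all 3 later and in none of the 3 earlier libraries; 8.89%, genome 6.49%), 5 were lost from D0 to D10 (5.56%, genome 8.91%) and 3 had a peak in all 9 WT libraries (3.33%, genome 1.15%). These shares have no test. The longest gained were chr16:92773945-92774837 (893 bp), chr16:92656010-92656705 (696 bp) and chr16:92688884-92689558 (675 bp). The longest lost were chr16:92699255-92700798 (1544 bp), chr16:92649746-92650837 (1092 bp) and chr16:92783766-92784773 (1008 bp). The 3 constant ones were chr16:92643780-92645579 (1800 bp), chr16:92614850-92616526 (1677 bp) and chr16:92597602-92598616 (1015 bp). The first of these also had a peak in all 3 mESC libraries and in all 6 KO libraries, and was the only constant one of the 3 with a peak in every library of the series.

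**Figure D2:**
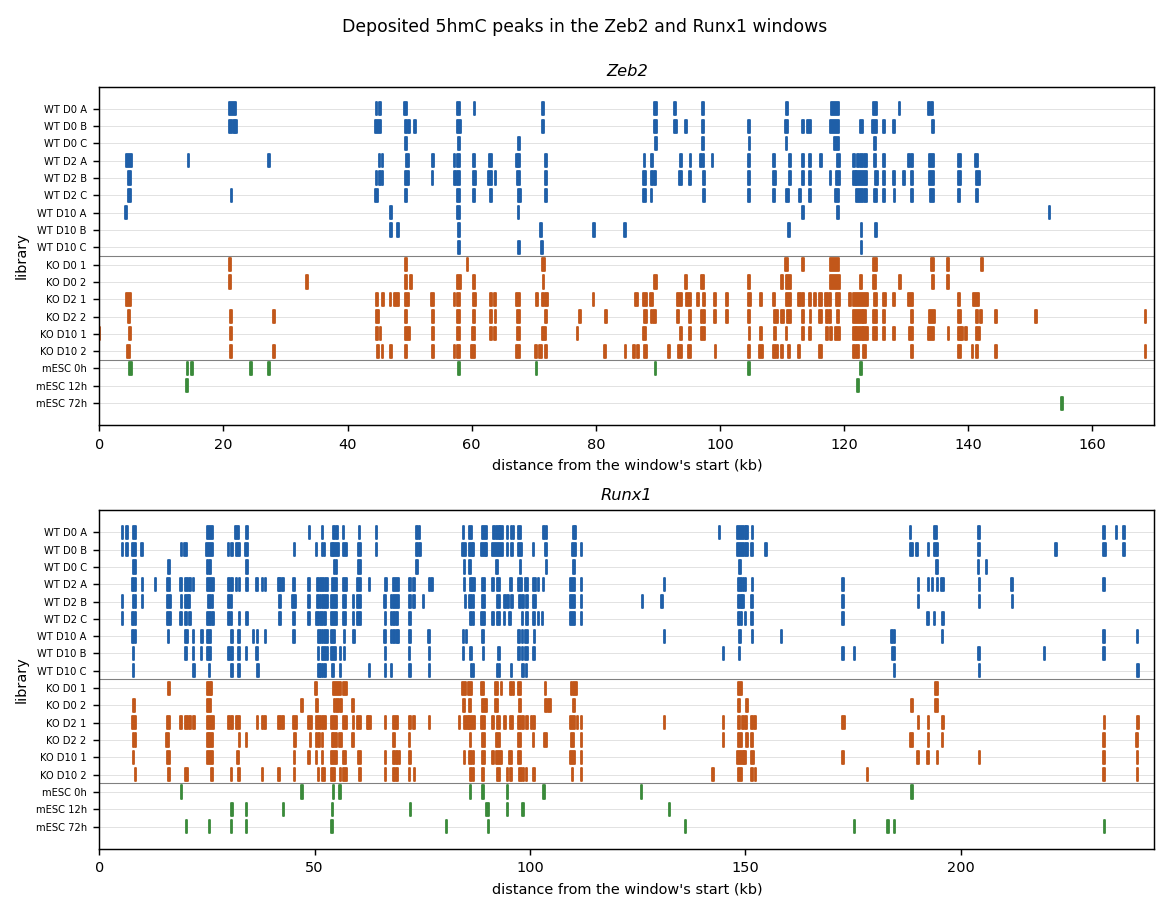
Position of every deposited peak (boxes) along the Zeb2 and Runx1 intervals, as distance from the start of the interval in kb (x axis), with a line for each of the 18 libraries (WT blue, KO orange, mESC green). Zeb2 peaks thin out to 7, 9 and 4 in the WT D10 libraries and remain at 40 and 41 in KO D10, whereas Runx1 keeps 27 to 42 peaks at WT D10.

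Over the 7 loci, 205 of the 296639 merged WT regions of the genome were counted, and each class is given beside its share in the genome. From D0 to D2, 20 were gained (9.76%, genome 8.43%) and 2 were lost (0.976%, genome 2.55%). From D2 to D10, 2 were gained (0.976%, genome 3.36%) and 31 were lost (15.1%, genome 13.9%). From D0 to D10, 9 were gained (4.39%, genome 6.49%) and 10 were lost (4.88%, genome 8.91%). A further 13 were transient, with a peak in all 3 libraries of D2 and in none of D0 and D10 (6.34%, genome 4.6%), and 5 were constant (2.44%, genome 1.15%). These classes have no test, since presence in 3 against 3 libraries gives none per region. They depend on single libraries: without WT D0 C, 21 regions were lost from D0 to D2 and 37 from D0 to D10, and without WT D2 C, 34 were gained from D0 to D2 and 25 were transient. Gains from D2 to D10 numbered 5 without WT D2 A, and 4 without WT D10 A or WT D10 C.

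By locus, the losses from D2 to D10 took in 16 of 51 regions at Zeb2, 5 of 17 at Snai1, 7 of 90 at Runx1, 2 of 17 at Prrx1, 1 at Snai2 and 0 at Zeb1 and Twist1. Zeb2 also held 8 of the 13 transient regions. The longest of these were chr2:44971155-44971839 (685 bp), chr2:44892674-44893297 (624 bp) and chr2:44968326-44968784 (459 bp). Both KO libraries of D2 had a peak in all 8, where KO1 had one in 77.4% and KO2 in 47.2% of the transient regions of the genome. At D10 KO1 had one in 7 (87.5%, genome 55.1%) and KO2 in 6 (75%, genome 50.6%), again with no test. The longest Zeb2 regions lost from D0 to D10 were chr2:44879155-44880032 (878 bp), chr2:44926823-44927570 (748 bp) and chr2:44919403-44919930 (528 bp). Zeb2 kept 1 constant region, chr2:44887616-44888297 (682 bp), which held the strongest Zeb2 peak of the WT D10 B list (5.04-fold, -log10 p 13.6) and that of mESC at 0 hours (6.36-fold). At Snai1 the region lost from D0 to D10 was chr2:167372846-167373786 (941 bp), and the transient ones were chr2:167362742-167363127 (386 bp) and chr2:167376929-167377234 (306 bp). The transient Runx1 regions were chr16:92610823-92611262 (440 bp) and chr16:92631718-92632149 (432 bp).

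**Figure D3:**
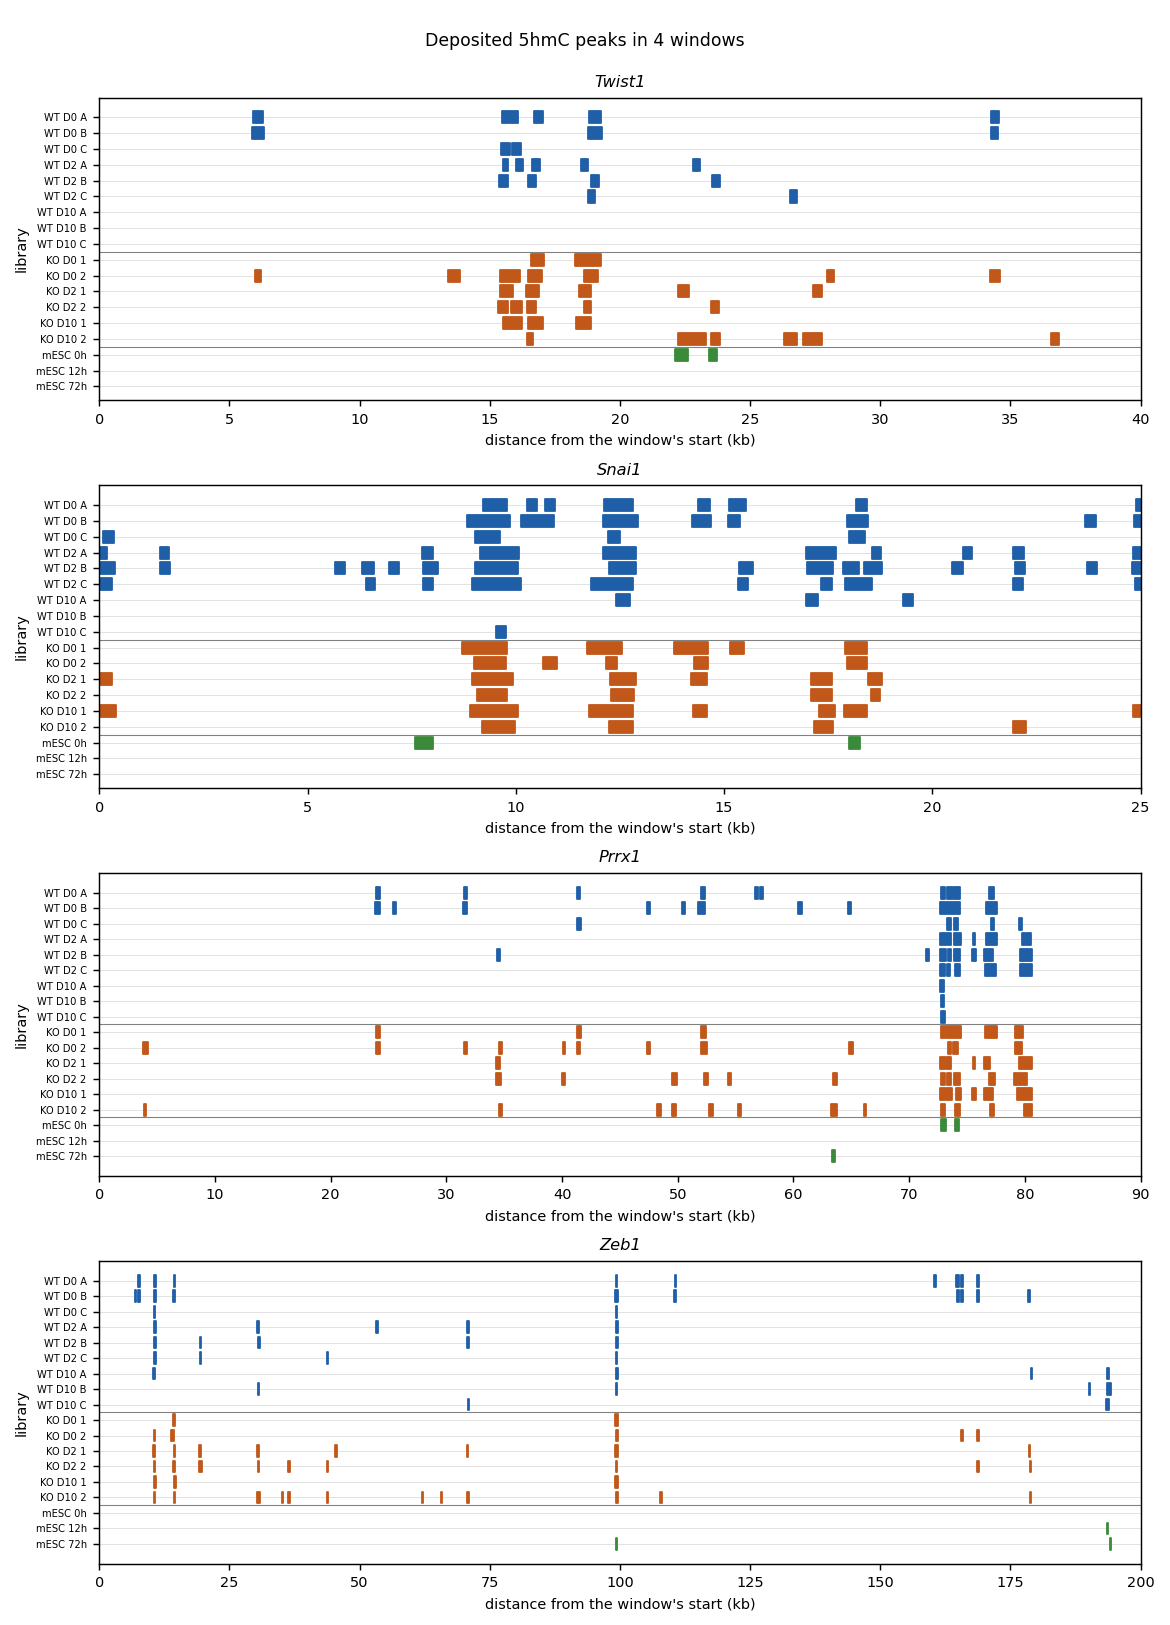
Position of every deposited peak (boxes) along the Twist1, Snai1, Prrx1 and Zeb1 intervals, as distance from the start of the interval in kb (x axis), with a line for each of the 18 libraries (WT blue, KO orange, mESC green). WT D10 libraries have no Twist1 peak and 1 Prrx1 peak each, while KO D10 libraries have 3 and 6 Twist1 peaks and 6 and 12 Prrx1 peaks.

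KO cells at D10 had higher coverage by the strongest 5hmC peaks than WT cells at Twist1, Zeb2, Snai1 and Prrx1. This comparison and those of WT days share the WT D10 libraries, so the calls are not independent of each other. At these loci KO1 and KO2 at D10 exceeded every WT library of D10, a separation whose share over all intervals was not counted. By limma, 4 of the 6 tested loci were called higher in KO (5.12% of all intervals). Zeb1 and Runx1 did not pass the test. KO had 2 libraries, and an exact permutation test of 2 against 3 cannot go below p = 0.1, the value it gave at each of the 4 loci.

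Twist1 had 1152 covered bp in KO1 and 2648 in KO2 at D10 against 0 in each WT library, a fitted difference of 3.23 (SE 0.44, limma adjusted p 0.000229). The KO lines were covered at mostly different Twist1 sites. In whole lists, KO1 peaks lay 15.500 to 18.875 kb from the interval's start. KO2 had a peak at 16.444 to 16.672 kb, and its others lay between 22.228 and 36.869 kb. KO D10 and WT D0 peaks shared a mean of 10.9% of their joint bp (0 to 31.8%). Among WT D0 libraries the mean was 24.7% (0 to 49.8%). Zeb2 had 11857 and 11623 bp against 1337, 1842 and 1048, a difference of 2.17 (SE 0.33, adjusted p 0.000459). Snai1 had 1879 and 1643 bp against 283, 0 and 254, a difference of 2.53 (SE 0.53, adjusted p 0.0043). In these 3 loci and in Prrx1 the KO and WT ranges did not overlap, and the share of all intervals without overlap was not counted. Prrx1 had 3421 and 2883 bp against 0, 259 and 350, a difference of 2.29 (SE 0.39, limma adjusted p 0.00109). At Zeb1, KO had 902 and 1842 bp and the difference was 0.08 (SE 0.44, adjusted p 1). At Runx1, KO had 12670 and 10315 bp, a range that overlapped WT. Scaled to the libraries' totals, Runx1 had 4358.5 and 4454.3 bp per 100 kb in KO, below the 5018.8, 5849.6 and 4872.2 in WT, and the difference of -0.22 did not pass the test (SE 0.33, limma adjusted p 0.718). The sign for Runx1 depends on the scaling, as whole lists gave 0.53 (adjusted p 0.493, the lowest of the alternatives, which reached 1).

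The run names pair WT B with KO1 and WT C with KO2 in style, and whether the style marks a batch is not given. Within each style, KO lay above WT at D10 at Twist1, Zeb2, Snai1 and Prrx1, as the values above show. Without WT B and KO1, the libraries named All, an alternative chosen after seeing the data, Twist1 and Zeb2 were still called. Snai1 was then 1.93 (limma adjusted p 0.0633; other alternatives from 0.000352) and Prrx1 2.40 (adjusted p 0.127; others from 0.000962), with the single KO library per day assumed to vary like the other groups. The lists of KO D10 held 112303 and 111281 peaks and those of WT D10 55134 to 86465, and the strongest peaks covered 31.5 and 25.1 Mb in KO and 17.6 to 21.8 Mb in WT at D10 before the totals were scaled. The part of list length in the difference was not tested. The main fit kept equal numbers of peaks, and the alternatives with whole lists or a minimum -log10 q kept lists of unequal length. The other alternatives varied other settings. On leaving out single libraries the difference was 2.55 to 3.91 at Twist1 and 2.03 to 2.31 at Zeb2.

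At the earlier days no locus passed the test between KO and WT. At D0 limma called 0 of 6 loci (0.176% of all intervals, in either direction), and 1 had an unadjusted p under 0.05. Twist1 had 1505 and 2133 bp in KO against 657, 467 and 664 bp in WT at D0, a difference of 1.28 (SE 0.44, adjusted p 0.31). In whole lists the ranges overlapped, with 1505 and 3212 bp in KO and 2013, 1249 and 664 bp in WT. At D2 limma also called 0 of 6 (0% of all intervals), with 2 at an unadjusted p under 0.05. Twist1 then had 970 and 809 bp in KO against 0 in WT under the strongest peaks (2.33, SE 0.44, limma adjusted p 0.155). Its whole lists held 2196 and 1776 bp in KO against 1318, 1270 and 526 bp in WT. Zeb2 had 14939 and 12537 bp against 6278, 10596 and 6996 bp (0.74, SE 0.33, limma adjusted p 0.722). Neither difference passed the test over all intervals. The groups did not overlap in either case, but the share of all intervals without overlap was not counted. KO1 and KO2 had 3578 and 816 bp at Snai1 at D0 and 1630 and 1980 bp at D2. At Prrx1 they had 4389 and 2428 bp, then 2091 and 2387 bp, and at Runx1 12363 and 7664 bp, then 20555 and 9167 bp. The limma adjusted p of KO against WT at these 3 loci was 0.847 or more on both days.

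Within KO, no locus passed the test between days, in a fit without a term for KO line. Of D2 against D0, limma called 0 of 6 loci (0.0955% of all intervals), with 1 at an unadjusted p under 0.05, and of D10 against D2 it called 0 of 6 (0% of all intervals), with 0 at an unadjusted p under 0.05. From D2 to D10 in KO the changes were 0.02 at Snai1 (SE 0.58), 0.46 at Prrx1 (SE 0.43), -0.15 at Zeb2 (SE 0.36) and 0.90 at Twist1 (SE 0.48), each with a limma adjusted p of 1. The difference between the genotypes in this D10 against D2 change was itself tested as an interaction. It passed at Prrx1 (2.61, SE 0.55, limma adjusted p 0.024) and Snai1 (2.96, SE 0.75, adjusted p 0.0492), 2 of 6 loci where 0.744% of all intervals passed in this direction. It did not pass at Zeb2 (1.42, SE 0.46, adjusted p 0.105). Nor did it at Twist1 (0.90, SE 0.62, limma adjusted p 0.521). There the WT D2 libraries had 0 bp under the strongest peaks, but 1318, 1270 and 526 bp in whole lists. The calls rest on few libraries. The Snai1 call was lost on leaving out any WT D2 or KO library of D2 or D10, or WT D10 B (adjusted p 0.0738 to 0.134, against 0.00742 at the lowest of the alternatives), and that of Prrx1 on leaving out any WT D2 library, KO1 at D2 or KO1 at D10 (adjusted p 0.0525 to 0.0717, in a range of 0.0102 to 0.287 over the alternatives).

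**Figure D4:**
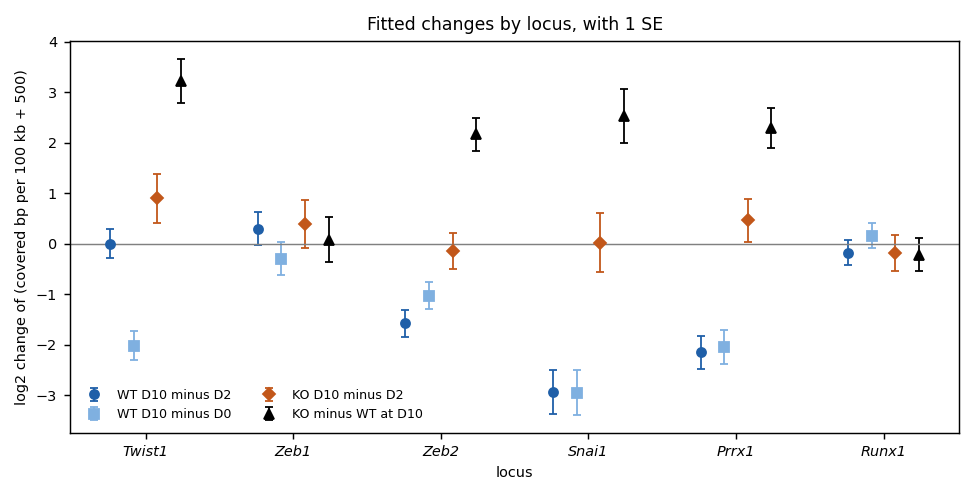
Fitted log2 changes of covered bp (y axis, log2 of covered bp per 100 kb + 500; bars, 1 SE) at the 6 testable loci for WT D10 minus D2, WT D10 minus D0, KO D10 minus D2, and KO minus WT at D10. Snai1, Zeb2 and Prrx1 lie between -1.58 and -2.94 for WT D10 minus D2 and between 2.17 and 2.53 for KO minus WT at D10, while Zeb1 and Runx1 lie within 0.30 of 0 for those 2 contrasts.

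The WT losses were mostly sites at which a KO line still had a peak, at a rate like the genome's. Of the 31 regions lost from D2 to D10 in WT, 15 had a peak in both KO libraries of D10 (48.4%, genome 42.6%) and 27 in at least 1 (87.1%, genome 87.3%). KO1 had a peak in 25 and KO2 in 17. At Zeb2 10 of 16 had a peak in both and 15 in at least 1, at Prrx1 2 of 2 in both, at Runx1 3 of 7 in both, and at Snai1 0 of 5 in both and 4 in at least 1. The 2 regions gained from D2 to D10, the Zeb1 site at 193.8 kb and the Runx1 site chr16:92773945-92774837, had no peak in any KO library, and both had one in mESC at 72 hours. In the genome 83.2% of such gained regions had no KO D10 peak and 33.8% had one in mESC at 72 hours.

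In windows of 10 kb the changes could be placed within the loci. Of the 86 windows that touch the loci, 15 reached a mean of 500 covered bp over the 9 WT libraries and were tested between WT days: 9 at Runx1, 3 at Zeb2, 2 at Prrx1 and 1 at Snai1. Another set of 15, with 13 in common, reached it over the 15 libraries with KO and was tested between genotypes: 7 at Runx1, 4 at Zeb2, 2 at Prrx1, and 1 each at Snai1 and Twist1. As this minimum selects covered windows, the counts support nothing beyond placing the change. Values are scaled covered bp, and changes are on log2(covered bp + 200). The median change over all windows tested was 0.36 for WT D2 against D0, -0.6 for D10 against D2 and -0.19 for D10 against D0. It was 0.66 for KO against WT at D10 and 0.75 for the interaction. Changes of single windows include this general shift. From D0 to D2, 3 windows were higher (14% of all windows), 1 at Prrx1 and 2 at Runx1. From D2 to D10, 6 were lower (32.6%) and 1 was higher (13.8%). From D0 to D10, 5 were lower (26.9%) and 1 was higher (22.3%).

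The Prrx1 window chr1:165240001-165250000 had 481, 737 and 381 bp in the WT libraries of D0, then 1233, 1885 and 2041 bp at D2, and 0 bp in all 3 at D10. It rose by 1.39 to D2 (SE 0.33, limma adjusted p 0.0207) and changed by -3.24 from D2 to D10 (SE 0.33, adjusted p 7.87e-05). This was the largest fall of any window of the loci from D2 to D10. The neighbour chr1:165230001-165240000, which holds the constant region, changed by -1.43 (SE 0.46, limma adjusted p 0.0313). The Snai1 window chr2:167360001-167370000 had 1524, 1475 and 2424 bp at D2 and 0, 0 and 383 bp at D10, a change of -2.78 (SE 0.46, adjusted p 0.00115). At Zeb2, chr2:44950001-44960000 changed by -1.93 (SE 0.53, adjusted p 0.0149).

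At Runx1, windows of the same locus went opposite ways. The window chr16:92730001-92740000 had 1643, 1247 and 569 bp at D0, 1049, 964 and 604 bp at D2 and 0 bp in all 3 libraries at D10 (D10 against D2, -2.40, SE 0.39, limma adjusted p 0.001). The window chr16:92620001-92630000 had 644, 0 and 549.9 bp at D2 and 1287, 2285 and 1538 bp at D10, a rise of 1.89 (SE 0.58, adjusted p 0.0251). The window chr16:92640001-92650000, which holds the longest constant region, rose by 1.42 from D0 to D2 (SE 0.39, limma adjusted p 0.0369) and lay 1.72 above D0 at D10 (SE 0.39, adjusted p 0.00567). Next to it, chr16:92650001-92660000 rose by 2.31 from D0 to D2 (SE 0.61, adjusted p 0.0322).

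Between genotypes at D10, 7 windows were higher in KO (20.8% of all windows) and 1 was lower (5.06%). Of the 7, 5 were also among the windows covered in WT, namely 2 at Zeb2 and 1 each at Snai1, Prrx1 and Runx1. The other 2 reached the minimum only with the KO libraries, so that their calls partly follow from that choice and their values are a description. They were the Twist1 window chr12:34640001-34650000, with 970.9 bp in KO1 and 1496 bp in KO2 at D10 against 0 bp in each WT library, and the Zeb2 window chr2:44960001-44970000, with 1755 bp in KO1 and 837 bp in KO2 against 0 bp. At Runx1, against the same WT D10 libraries as before, chr16:92730001-92740000 had 1282 and 808 bp in KO against 0 bp in WT (2.61, SE 0.49, limma adjusted p 0.0018), and chr16:92620001-92630000 had 0 and 495 bp in KO against 1287, 2285 and 1538 bp in WT (-2.32, SE 0.74, adjusted p 0.0311). The interaction of genotype with D10 against D2 passed in 2 windows (9.49% of all windows), the Prrx1 window chr1:165240001-165250000 (4.51, adjusted p 0.0111) and the Runx1 window chr16:92730001-92740000 (2.90, adjusted p 0.0178), by limma. The counts rest on few libraries: from D2 to D10 in WT, 4 windows were called without WT D2 B. From D0 to D2 there were 0 without WT D0 A, WT D2 B or WT D2 C and 1 without WT D2 A. At D10, 5 differed between genotypes without WT D10 B and 4 without KO1, and the interaction passed in 0 windows without KO1 at D10 and in 1 without KO1 at D2.

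In mESC, with 1 library per time and so no test, Runx1 had 10, 9 and 12 peaks at 0, 12 and 72 hours, Zeb2 10, 2 and 1, and each other locus at most 2. Twist1 had 806 covered bp at 0 hours and no peak at 12 or 72 hours, and Snai1 had 715 bp at 0 hours and none later. Prrx1 had 844, 0 and 300 bp, and Zeb2 3177, 515 and 229 bp at 0, 12 and 72 hours. These 4 loci were thus highest at 0 hours, in lists of 30791, 33576 and 24130 peaks. Zeb1 had 0, 247 and 523 bp. Runx1 had 3037, 2984 and 3149 bp. Density relative to the genome at 0 hours was 7.8 at Snai1, 5.5 at Twist1, 5.1 at Zeb2, 3.38 at Runx1 and 2.56 at Prrx1, so that Runx1 lay below 3 of the other loci. At 12 and 72 hours that of Runx1 was 3.37 and 4.78, and that of Zeb2 0.837 and 0.501. At 72 hours Twist1 and Snai1, like Twist1 in WT D10, had no deposited peak, while Runx1 had 12. The intervals span 40 kb at Twist1, 25 kb at Snai1 and 245 kb at Runx1, so these counts do not show an absence particular to a locus. mESC lists are shorter than the pre-iPSC lists and were used whole, so bp are not compared between the cell types.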

How the data were processed

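DNA was sonicated, 5hmC was tagged with an azide-modified glucose and biotin, and captured fragments were amplified, per the labels' protocols. Bowtie, SAMtools and MACS2 and the build mm9 are named in the submitters' processing notes, with their versions not given in the sources used here. Each deposited list gives, per peak, the authors' score, the fold enrichment as a ratio at the summit, -log10 of p and -log10 of q. Run names carry a p-value threshold of 0.0001, per the file headers of the deposited lists. Per the labels, mESC peaks were not called, but a list in the same format exists for each of the 3 libraries and was used. Read depth is not held in the lists, so only list length is given.

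Peaks on chromosomes 1 to 19 and X were used. Covered bp under the 55130 strongest peaks were scaled to the mean total over 15 libraries and tested with limma 3.58.1 (R 4.3.3; eBayes with trend and robust; two-sided; Benjamini-Hochberg at 0.05 per contrast), beside 100 kb tiles (pseudocount 500 bp; 18956 intervals for 9 WT libraries, 19888 for 15) or in 10 kb windows (pseudocount 200 bp, minimum mean 500 bp). WT contrasts came from WT libraries alone, and KO contrasts from 6 groups. Exact permutation tests and counts used Python 3.11.15. Overlap meant 1 bp. The tests were tested on simulated data. Same-lettered WT libraries did not deviate together over the tiles (r -0.05 to 0.05), and the main fits had no term for letter. These correlations cannot exclude a pairing by letter, and WT C had the shortest WT list on each day. KO1 and KO2 were taken as the same lines on each day (r 0.37 to 0.46), but the main fits had no term for line. The p-values between KO days and of the interaction ignore this pairing, and a block for line entered only as an alternative. Whether replicates came from separate cultures is not labelled, so p-values cover only the spread among these libraries, possibly technical.

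The members, lists and tests were chosen with earlier results of these data known. All 7 loci are named. Windows named are those past the threshold without overlap of the groups, at most 3 per locus and contrast; regions named are the longest of their class, at most 3; and the strongest peak of each locus is named. Sites described as recurrent at Zeb1, Snai1 and Prrx1 were chosen after their values were seen. Lists of other mesenchymal and epithelial genes were planned and not used, because the gene table at hand is of another build. RefSeq promoters matched 5 of the 7 genes; Zeb1 and Snai2 had no entry. The input library was not analysed here.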

Additional observations from a re-analysis of the deposited data

Results flagged for a closer look

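At 2 loci and in 2 windows the change from D2 to D10 differed between KO and WT by limma's test of the difference itself. The interaction was 2.96 at the Snai1 locus and 2.61 at the Prrx1 locus, on the log2 scale of covered bp per 100 kb + 500. Within Prrx1 it was 4.51 in the window chr1:165240001-165250000, and within Runx1 it was 2.90 in chr16:92730001-92740000, on the log2 scale of covered bp + 200. The median interaction over all windows tested was 0.75. At these 2 loci and in these 2 windows WT fell from D2 to D10 and KO did not pass the test. In the Prrx1 window KO2 had 0 bp at D2 and 700.4 bp at D10, and KO1 1278 and 1723 bp, so the size of that value includes the KO2 library at D2.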

How the results depend on the processing

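The lower coverage in WT at D10 and the higher coverage in KO at D10 held on leaving out each library: 3 loci were called for D10 against D2, 4 for D10 against D0 and 4 for KO against WT at D10 in every such fit. The Twist1 fall from D0 to D2 and the interactions did not hold as widely. Leaving out each library gave 1 to 2 loci for D2 against D0 and 0 to 2 for the interaction. It gave 0 to 4 windows for D2 against D0, 4 to 6 for D10 against D2, 0 to 1 for KO against WT at D2, 4 to 8 at D10 and 0 to 3 for the interaction. For regions it gave 22 to 34 gained and 2 to 21 lost from D0 to D2, 2 to 5 gained from D2 to D10, 11 to 37 lost from D0 to D10 and 13 to 25 transient. With whole lists, 5 loci were lower for D10 against D2 (Snai2 could then enter) and 1 passed the interaction. Windows then numbered 5 for D2 against D0, 17 for D10 against D2 and 11 for D10 against D0 (all lower), 16 for KO against WT at D10 (all higher), 3 for KO D2 against D0 and 4 for the interaction. With peaks at -log10 q of at least 5, 0 loci were called for D2 against D0. Windows were 1, 11 and 10 for the WT contrasts in the same order, 14 for KO against WT at D10 and 6 for the interaction, and regions were 1 lost from D0 to D2, 5 gained from D0 to D10 and 2 constant. A pseudocount 10 times smaller left 0 loci for the interaction, and 1 and 3 windows for D2 against D0 and D10 against D2, and one 10 times larger left 1 locus for the interaction and added 1 window for KO D2 against D0. Tiles of the locus's own length left 1 locus for the interaction. Centring on the median gave 2 loci and 0 windows for D2 against D0. With no minimum, windows were 6, 11 and 10 for the WT contrasts, and with a minimum of 2000 bp they were 1, 0 and 1, and 0 for KO against WT at D10 and for the interaction. With the strongest peaks alone, regions showed 12 gains and 4 losses for D0 to D2, 5 gains and 11 losses for D2 to D10, 4 transient and 3 constant. With 50% of a region covered they were 0 gained from D2 to D10, 4 gained and 4 lost from D0 to D10, and 1 constant. Without the libraries named All, an alternative chosen after seeing the data, loci were 0 for D2 against D0, 1 for KO against WT at D0, 2 at D10 and 0 for the interaction. Windows were then 0, 3 and 3 for the WT contrasts, 3 for KO against WT at D10 and 0 for the interaction, and of regions 33 gains and 4 losses occurred from D0 to D2, 16 losses from D0 to D10, and 21 transient. In this setting Twist1 was -2.28 for D2 against D0 (limma adjusted p 0.07) and Zeb2 -1.18 for D10 against D0 (adjusted p 0.0519). Signs reversed only at loci that were not called: Zeb1 for D10 against D2 was -0.17 with whole lists, and Runx1 was -0.35 for D10 against D0 and 0.53 for KO against WT at D10 with whole lists, and -0.18 for D10 against D0 without WT D0 C (up to 0.34 without other single libraries). The replicate block changed no count of loci or windows called by limma by over 1.5 times. Exact permutation within letters (replicate block) left 0 of the 4 loci with p under 0.05 over the WT days, with 0.0278 as its smallest possible p. Except where fewer libraries or fewer windows entered by construction, the cause was not tested. Peak lists hold no reads, so a locus without a peak may still carry 5hmC below the calling threshold.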
